A study of Saccharomyces cerevisiae with 4 samples.

Results

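The 10 genes described here make, use and carry glycerol in the budding yeast Saccharomyces cerevisiae: GPD1, GPD2, GPP1, GPP2, GUT1, GUT2, DAK1, GCY1, FPS1 and STL1. They were chosen by gene symbol in the array's annotation, and are 10 of 5539 named genes. Each was printed as 2 spots, 20 spots in all of 12800. Congo red-treated cells, which had 30 µg/ml of this wall-binding dye for 2 h, were compared with untreated cells of the same divided culture. Both grew in rich medium at 24 °C and were of BY4741, a haploid mating type a strain used in laboratories. Treated and untreated cells therefore shared that strain's deletions in HIS3, LEU2, MET17 (also called MET15) and URA3. Transcripts were measured on 4 2-colour arrays, each with RNA of treated and untreated cells. On arrays 1 and 3 channel 2 held the treated RNA, and on arrays 2 and 4 channel 1 did. Nothing in the labels tells separate cultures from repeated hybridisations of 1 culture, so p-values reflect array-to-array spread, possibly technical.

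Yeast makes glycerol from dihydroxyacetone phosphate, an intermediate of glycolysis, by reducing it to glycerol 3-phosphate and then removing the phosphate. The cell keeps glycerol inside to balance high osmolarity, under control of the HOG kinase pathway, and also makes it to reoxidise NADH. Glycerol leaves through the channel Fps1, enters through the proton symporter Stl1, and is burned by way of glycerol kinase or, on a second route, dihydroxyacetone. Congo red acts on the cell wall, whose stress is signalled mainly by the kinase Slt2 and the factor Rlm1.

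The values are log2 ratios, printed here after each array was centred on its median, so that 0 is the array's typical spot. Deposited medians were 0.31, 0.02, -0.46 and 0.37 on arrays 1 to 4. The direction, Congo red over untreated, is likely but not settled by the sources. The 7 wall stress markers, known targets of the Slt2-Rlm1 route, lay above 0 on each of the 4 arrays, with medians of 1.96, 1.52, 2.11 and 2.19. Ratios that ran by channel would have turned these markers round between arrays 1 and 3 and arrays 2 and 4. The markers were listed with earlier results of these data known, so they are not an independent check of the direction. Across all genes, though, arrays with opposite channel assignment had a mean Pearson's r of -0.04, while r was 0.30 between arrays 1 and 3 and 0.08 between arrays 2 and 4. These are correlations across genes, which are not independent replicates. The same comparisons gave a Spearman's rho of -0.09, 0.60 and 0.20. The ratios give no expression level, so one gene's abundance cannot be set against another's, and the strain's own markers could not be checked. A ratio over a whole culture also cannot tell fewer responding cells from less RNA per cell.

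Congo red moved none of the glycerol genes past the test threshold. All 10 had values on at least 3 arrays and were tested with limma among 5489 genes. Of the 10, 0 were called higher and 0 lower at an adjusted p under 0.05, where 0.0911% of all genes were called higher and 0% lower. At an unadjusted p under 0.05 only GPD1 was picked out, 1 of the 10, where 7.74% of all genes were. The mean ratio was above 0 for 4 genes and below 0 for 6. The median of the 10 means was -0.13, against -0.01 for all genes tested. In absolute size the median mean was 0.32 for the glycerol genes and 0.21 for all genes, with median limma standard errors of 0.17 and 0.21.

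GPD1 (YDL022W) encodes the glycerol 3-phosphate dehydrogenase that osmotic stress induces, the first enzyme of glycerol synthesis. Its log2 ratio was 0.35, 0.32, 0.31 and 0.51 on arrays 1 to 4. The values were above 0 on every array and nearly equal on 3 of them, with array 4 higher. The mean was 0.37 ± 0.13 (limma SE, n = 4), a ratio of 1.30 with a 95% interval from 1.03 to 1.64 (limma unadjusted p = 0.035, limma adjusted p = 0.63). As deposited, before centring, array 3 gave -0.15, so the common sign depends on centring. With arrays 2 and 4 turned, the mean was -0.044. Among the 8 glycerol genes with values on all arrays, GPD1 alone stood above 0 on each. Of all 5124 genes with values on all 4 arrays, 9.54% did.

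GPD2 (YOL059W), the second dehydrogenase gene, is the one linked to redox balance and growth without oxygen. It gave -0.24, -1.91, -0.11 and 0.39 on arrays 1 to 4. Array 2 lay far below the others and array 4 was above 0. The mean was -0.47 ± 0.41 (limma SE, n = 4, limma adjusted p = 0.77), and without array 2 it was 0.01. Its 95% interval, from 0.35-fold to 1.49-fold, was the widest on the log scale among the 10 genes. On array 2 its paired spots read -1.44 and -2.39, both the lowest values of the gene.

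The phosphatase genes GPP1 (YIL053W) and GPP2 (YER062C) encode closely related enzymes that free glycerol from glycerol 3-phosphate, GPP2 being the one tied to osmotic stress. GPP1 gave -0.86, -0.19, -0.59 and 0.34 on arrays 1 to 4, with a mean of -0.32 ± 0.24 (limma SE, n = 4, limma adjusted p = 0.75). It was lowest on arrays 1 and 3, which share a channel assignment, and above 0 on array 4 only. Without array 1 the mean was -0.15, and without array 4 it was -0.54. GPP2 gave 0.19, -0.25, 0.43 and 0.12, with a mean of 0.12 ± 0.17 (limma adjusted p = 0.85). It was below 0 on array 2 only, and leaving out 1 array gave means from 0.02 (without array 3) to 0.25 (without array 2). The genes are similar in sequence, and whether either spot also binds the other transcript was not tested, which makes their separate values uncertain.

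**Figure D1:**
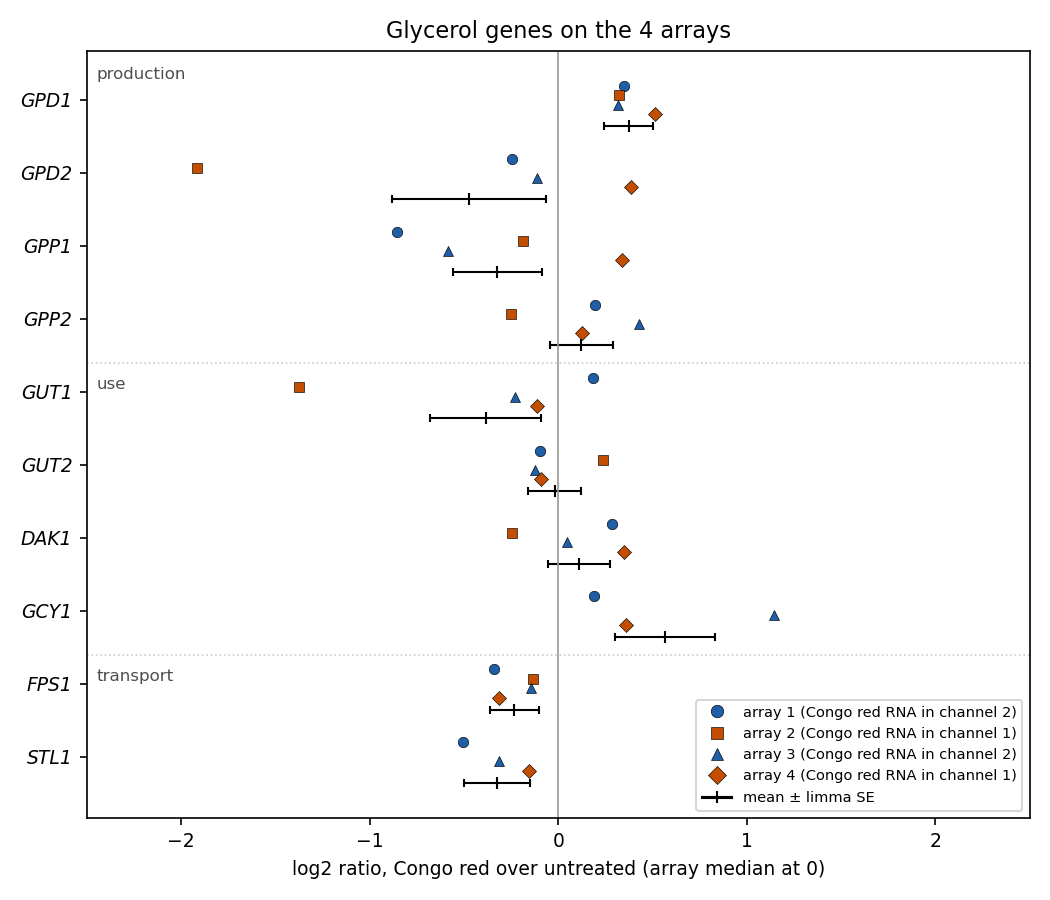
Log2 ratio of Congo red over untreated (horizontal axis, array median at 0) for each glycerol gene, grouped by role, with 1 symbol per array coloured by the channel of the treated RNA. Black bars are the mean ± limma standard error. GPD1 sits above 0 and FPS1 below 0 on all 4 arrays, while GPD2 and GUT1 each have a far lower value on array 2.

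Pairs of members were also set against each other within each array, which cancels the array's centring. GPD1 and GPD2, and GPP1 and GPP2, are related genes of the same step, while GUT1 and GUT2 encode different enzymes of glycerol use. GPD1 exceeded GPD2 by 0.59, 2.24, 0.43 and 0.13 on arrays 1 to 4. The sign was the same on every array, with a mean difference of 0.85 ± 0.95 (SD, n = 4), most of it from array 2 (two-sided exact sign-flip permutation p = 0.125, adjusted over 3 pairs 0.375). With 4 arrays 0.125 is the smallest p this test can give, so no call was possible. GPP1 minus GPP2 was -1.05, 0.07, -1.01 and 0.21, a mean of -0.45 ± 0.68 (SD, n = 4, exact permutation p = 0.5, adjusted 0.625). The 2 phosphatase genes were about 1 log2 unit apart on arrays 1 and 3 and close on arrays 2 and 4. GUT1 minus GUT2 was 0.28, -1.62, -0.11 and -0.02, a mean of -0.37 ± 0.85 (SD, n = 4, exact permutation p = 0.625, adjusted 0.625). Without array 2 that mean was 0.05.

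GUT1 (YHL032C), glycerol kinase, starts the main route of glycerol use. Its ratio was 0.18, -1.38, -0.23 and -0.11 on arrays 1 to 4. As with GPD2, array 2 stood lowest, and the other 3 values lay close to 0. The mean was -0.38 ± 0.29 (limma SE, n = 4, limma adjusted p = 0.75), against -0.05 without array 2. GUT2 (YIL155C), the mitochondrial dehydrogenase that takes glycerol 3-phosphate back to dihydroxyacetone phosphate, gave -0.10, 0.24, -0.12 and -0.09. Its mean was -0.02 ± 0.14 (limma adjusted p = 0.97), with a 95% interval from 0.77-fold to 1.27-fold. GUT2 thus stayed within a narrow range, and array 2, the lowest for its partner GUT1, was its highest.

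The dihydroxyacetone route uses a glycerol dehydrogenase, for which GCY1 (YOR120W) is a candidate gene in yeast, and the kinase DAK1 (YML070W), which also detoxifies dihydroxyacetone. DAK1 gave 0.28, -0.25, 0.05 and 0.35 on arrays 1 to 4, a mean of 0.11 ± 0.16 (limma SE, n = 4, limma adjusted p = 0.86). Its array 2 value came from 1 spot. The mean was 0.03 without array 4 and 0.23 without array 2. GCY1 had no value on array 2 and gave 0.19, 1.15 and 0.36 on arrays 1, 3 and 4. Its mean of 0.56 ± 0.26 (limma SE, n = 3, limma adjusted p = 0.69) rests on 3 arrays, and was 0.33 with arrays 2 and 4 turned. The paired GCY1 spots on array 3 read 1.84 and 0.45, a gap of 1.39, and without array 3 the mean was 0.27. Averaged over the arrays with values, the spot with the lower number gave 0.81 and its partner 0.31.

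FPS1 (YLL043W), the channel that lets glycerol out and closes under high osmolarity, gave -0.34, -0.13, -0.15 and -0.31 on arrays 1 to 4. All 4 values were below 0, and those of arrays 1 and 4 were the lower ones. The mean was -0.23 ± 0.13 (limma SE, n = 4), a ratio of 0.851 with a 95% interval from 0.672 to 1.08 (limma adjusted p = 0.71). Among the 8 glycerol genes with values on every array FPS1 alone was below 0 on each, as were 8.65% of all 5124 genes with values on every array. With arrays 2 and 4 turned, as for ratios that run by channel, it had 2 values on each side of 0 and a mean of -0.0099. As deposited, array 4 gave 0.06 and array 1 gave -0.03, so this common sign also depends on centring. STL1 (YDR536W), the glycerol uptake symporter, which is repressed by glucose and induced by osmotic stress, had no value on array 2. On arrays 1, 3 and 4 it gave -0.50, -0.31 and -0.16, a mean of -0.32 ± 0.18 (limma SE, n = 3, limma adjusted p = 0.71). On arrays 1 and 3 that value came from 1 spot each. As deposited, STL1 gave 0.21 on array 4, so its common sign depends on centring too.

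In the order of the mean ratios, GCY1 was followed by GPD1, GPP2, DAK1, GUT2, FPS1, GPP1, STL1, GUT1 and GPD2. With arrays 2 and 4 turned the order was GUT1, GCY1, GPD2, GPP2, DAK1, FPS1, GPD1, GUT2, STL1 and GPP1, from 0.36 to -0.40, so the order depends on the direction. Neighbours in the first order had overlapping array values with 1 exception, GUT2 and FPS1, whose closest values were -0.12 and -0.13. The 95% intervals of 9 genes held 0, GPD1 being the exception. For 7 genes the interval lay wholly inside a 2-fold change in either direction. The other 3, GPD2, GUT1 and GCY1, had the largest standard errors of the 10.

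The paired spots show how well each ratio was measured within an array. Of 80 possible spot readings, 73 were present, and 35 of 40 gene and array combinations had both spots. The median gap between paired spots was 0.11 for the glycerol genes, against 0.17 for all genes. It was at most 0.2 in 24 of the 35 pairs and above 1 in 1, GCY1 on array 3. FPS1 spots differed by 0.02 to 0.05 and GPP1 spots by 0.04 to 0.10. For GPP1 the array values spanned -0.86 to 0.34, much more than its paired spots differed. The low array 2 values of GPD2 and GUT1 were shared by both spots, although those pairs were 0.95 and 0.58 apart. Spots on array 2 disagreed most in general, with 17.9% of all pairs more than 1 apart, against 5.94% to 9.54% on the other arrays. Without signal strengths, which were not used here, whether a spot rose above its background was not assessed.

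**Figure D2:**
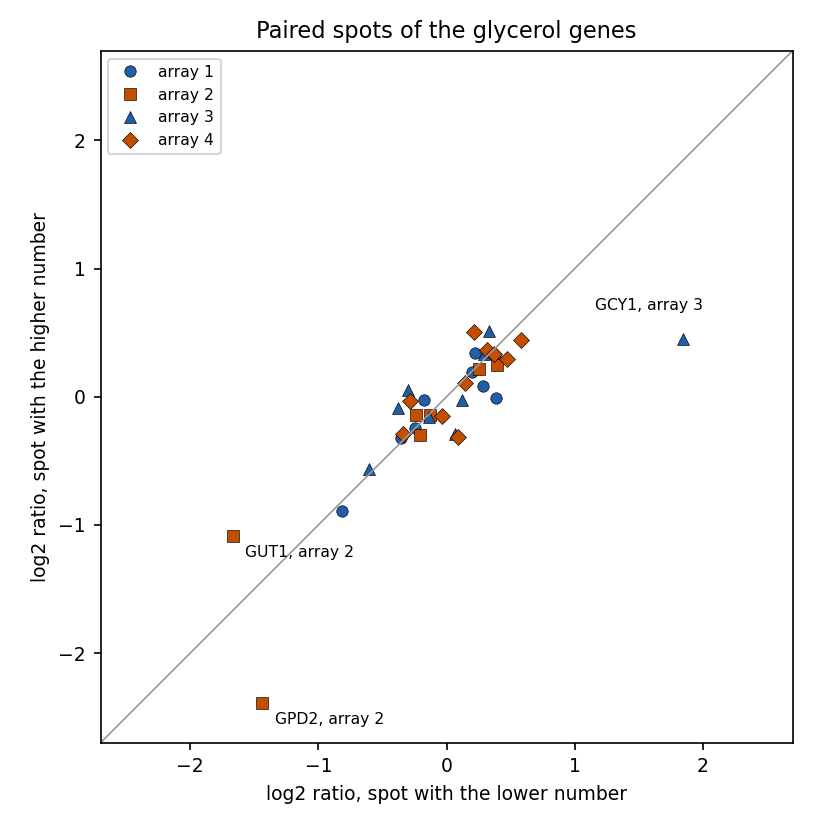
Log2 ratio of the spot with the higher number (vertical axis) against that of the spot with the lower number (horizontal axis) for the 35 gene and array combinations with both spots, on equal scales, with the line of equality. Most pairs lie near the line, and the 3 labelled pairs are more than 0.5 apart, GCY1 on array 3 the farthest at 1.39.

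Arrays 1 and 3 were next set against arrays 2 and 4, since the channel of the treated RNA differed between them. GPD1 averaged 0.33 on arrays 1 and 3 and 0.42 on arrays 2 and 4. FPS1 averaged -0.24 on arrays 1 and 3 and -0.22 on arrays 2 and 4. These 2 genes had the smallest gaps of the 10. GPP1 had the largest, averaging -0.72 on arrays 1 and 3 and 0.07 on arrays 2 and 4. In a limma fit with a term for the channel, that term had an unadjusted p = 0.059 for GPP1 (limma adjusted p = 0.31). No glycerol gene had a channel term with an unadjusted p under 0.05, where 16.6% of all genes did, and at an adjusted p under 0.05 the term was called for 0 of the 10 and 0% of all genes. In the same fit the mean of GPD1 was 0.37 ± 0.10 (limma SE, n = 4, limma adjusted p = 0.35), and the mean of a gene with 4 values is unchanged by this term through its construction.

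**Figure D3:**
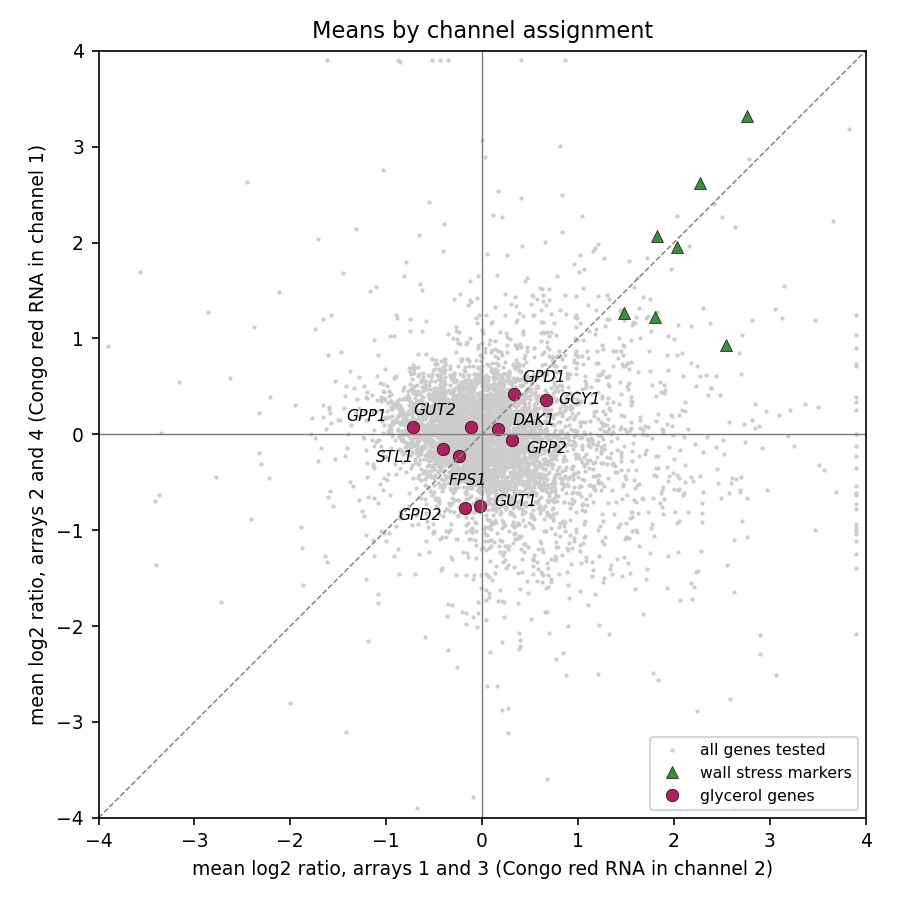
Mean log2 ratio on arrays 2 and 4 (vertical axis) against that on arrays 1 and 3 (horizontal axis) for all genes tested, the 7 wall stress markers and the 10 glycerol genes, with the line of equality dashed and genes beyond the axes drawn at the edge. GPD1 and FPS1 lie near the line, at 0.33 and 0.42 and at -0.24 and -0.22, GPP1 lies left of it, and the markers lie far above 0 on both axes.

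Enzymes next to the glycerol route did not pass the test either. Of the 5 listed, 0 were called, 3 had a mean above 0 and 2 below, and the list median was 0.09. FBA1, the aldolase that yields dihydroxyacetone phosphate, was at -0.45 ± 0.20 (limma SE, n = 4), and TPI1, which turns that compound into glyceraldehyde 3-phosphate, at -0.15 ± 0.27. Both were lowest on array 1 and highest on array 4, as GPP1 was, but how many of all genes share this was not counted. DAK2, related to DAK1, gave 1.83, 0.78 and -0.36 on arrays 1, 2 and 4, a mean of 0.75 ± 0.48 (n = 3). YPR1, the closest relative of GCY1, was at 0.09 ± 0.14 and the reductase gene ARA1 at 0.33 ± 0.14, with limma adjusted p of 0.87 and 0.65. ARA1 was above 0 on all 4 arrays, from 0.15 to 0.53.

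Among genes of other channels and of regulators of Fps1, ASK10 had the smallest p. ASK10, also called RGC2, encodes one of a pair of related proteins that bind Fps1 and keep it open. It gave 0.93, 0.71, 0.74 and 0.85 on arrays 1 to 4, above 0 on all of them and under either channel assignment. The mean was 0.81 ± 0.13 (limma SE, n = 4, limma unadjusted p = 0.0016), and it did not pass over all genes (limma adjusted p = 0.24). RGC1, the other of the pair, gave 0.65, -0.32, 0.84 and 0.09, a mean of 0.31 ± 0.24 (limma adjusted p = 0.75).

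Of the list of other channels and Fps1 regulators, all 7 were tested, 4 had a mean above 0 and 3 below, 0 were called and the median was 0.25. AQY1, of the water channel gene family, was at -0.90 ± 0.34 (limma SE, n = 4, limma adjusted p = 0.63), though above 0 on array 1 at 0.13. AQY2, of the same family, was at -0.26 ± 0.21. GUP1, a membrane acyltransferase once tied to glycerol uptake, was at -0.26 ± 0.20. Its relative GUP2 varied from -0.47 on array 2 to 3.16 on array 1, a mean of 1.06 ± 0.64. AQY3 (YFL054C), a channel gene related to FPS1, gave 0.36, -0.04, 0.11 and 0.57, a mean of 0.25 ± 0.16 (limma adjusted p = 0.73).

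**Figure D4:**
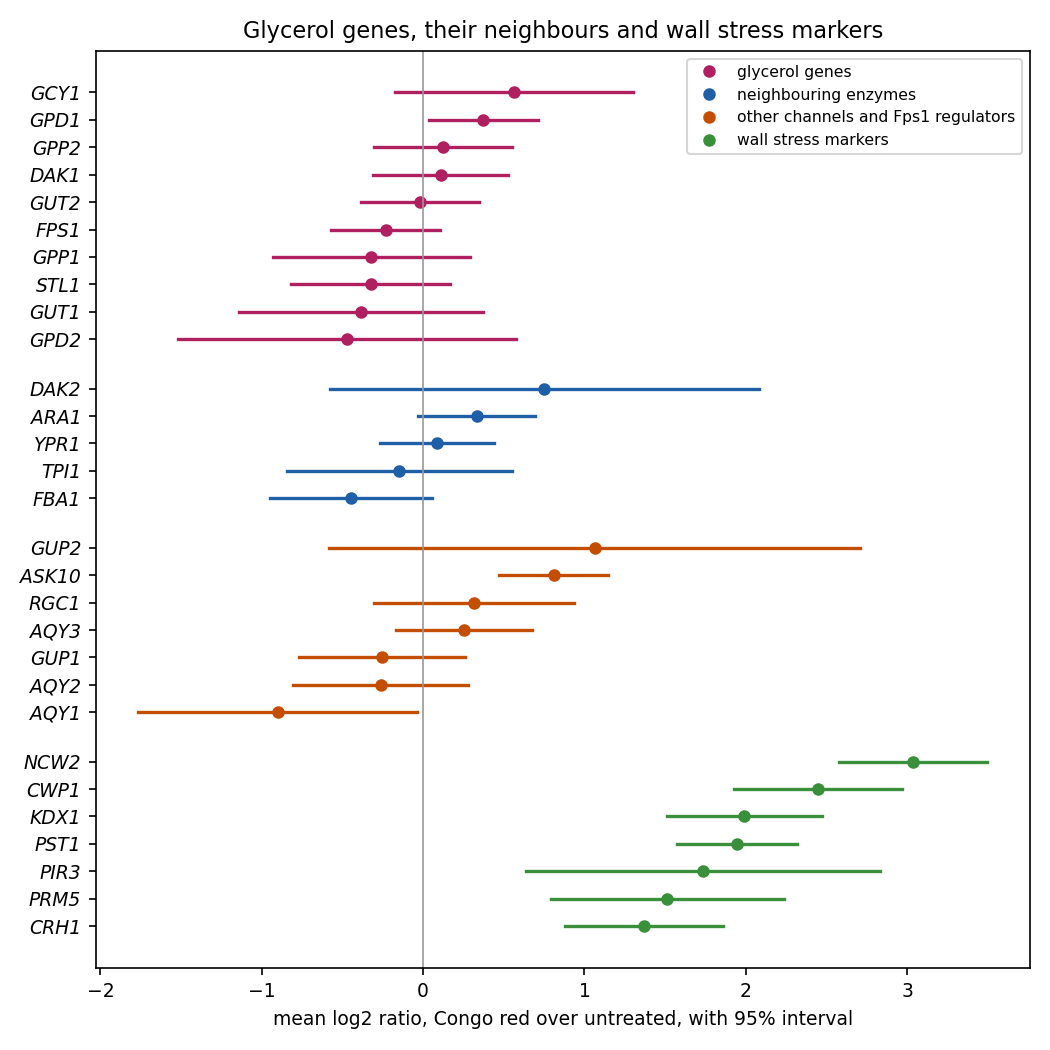
Mean log2 ratio of Congo red over untreated with its 95% limma interval (horizontal axis) for the glycerol genes, neighbouring enzymes, other channels and Fps1 regulators, and wall stress markers, each group in order of its means. The glycerol genes lie between -0.47 and 0.56, ASK10 is at 0.81, and the markers lie between 1.37 and 3.04.

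Wall stress markers, listed with earlier results of these data known, give a scale for these ratios on the same arrays. All 7 had a mean above 0, with a median of 1.95, and NCW2 and PST1 passed over all genes, at 8.22-fold and 3.85-fold (limma adjusted p = 0.036 and 0.045). Both calls were lost with a channel term (limma adjusted p = 0.054 and 0.15), and no gene was called when any 1 array was left out. CWP1, KDX1, PIR3, PRM5 and CRH1 did not pass in the main fit, at 5.45-fold, 3.97-fold, 3.33-fold, 2.85-fold and 2.59-fold. Over all 7 markers the lower bounds of the 95% intervals ran from 1.55-fold for PIR3 to 5.98-fold for NCW2. Upper bounds were 1.64-fold for GPD1, above the lower bound of PIR3, and 2.46-fold for GCY1, the highest of the 10 glycerol genes. The bound of GCY1 lay above the lower bounds of PIR3, PRM5 (1.73-fold) and CRH1 (1.84-fold). NCW2 and PST1 encode lipid-anchored wall proteins, and these markers also serve to read the direction of the ratio.

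GPD1 and STL1 are known targets of the HOG pathway, which answers high osmolarity. Of 22 HOG signalling genes 15 had a mean above 0 and 7 below, with a median of 0.24 and 0 called. PTP2, a phosphatase that acts on the kinases Hog1 and Slt2, was at 1.59 ± 0.24 and the kinase gene SSK22 at 0.58 ± 0.13 (limma SE, n = 4 each), with limma adjusted p of 0.23 and 0.41. Of 16 osmostress targets tested 11 were above 0 and 5 below, with a median of 0.15 and 0 called. RTC3 was at 0.69 ± 0.16 and ALD6, an aldehyde dehydrogenase gene, at 0.48 ± 0.18. GPD1 at 0.37 lay above the medians of both lists, and STL1 at -0.32 below them.

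General stress and carbon source lists gave small medians too. Targets of the stress response element, the site of Msn2 and Msn4, had 12 of 20 above 0, a median of 0.10 and 0 called. HSP12, a small membrane-binding stress protein gene, was at 1.29 ± 0.18 and TPS2, of trehalose synthesis, at 1.10 ± 0.16. HSP26, a small chaperone gene chosen for mention with its value known, was at -0.81 ± 0.17 (limma SE, n = 4, limma adjusted p = 0.36), below 0 on all 4 arrays. NTH1 of the same list, with a smaller p than HSP26, was at 0.71 ± 0.13 (limma adjusted p = 0.29), above 0 on all 4 arrays. Genes repressed by glucose, as STL1, GUT1 and GUT2 are known to be, had 6 of 16 above 0, a median of -0.06 and 0 called. ADY2, an acetate transporter gene, was at 1.26 ± 0.54 (n = 3) and the alcohol dehydrogenase gene ADH2 at -0.24 ± 0.18. Genes that carry glycerol 3-phosphate into lipid had 3 of 7 above 0, a median of -0.05 and 0 called. CDS1 and SLC1, enzymes of phospholipid synthesis, were at -0.35 ± 0.14 and -0.30 ± 0.15, each below 0 on all 4 arrays.

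The genes whose 4 values lay nearest to those of GPD1, by root mean square difference over the 4 arrays, were MFM1 at 0.06, ADE16 at 0.07, and ECM22, PCS60 and GDE1 at 0.08 each. MFM1 encodes a mitochondrial magnesium transporter, ADE16 an enzyme of purine synthesis, ECM22 a regulator of sterol genes, PCS60 a peroxisomal enzyme, and GDE1 a glycerophosphocholine phosphodiesterase. Their means ran from 0.34 to 0.42. With 4 arrays of 1 comparison, this likeness is a description of equal ratios only.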

How the data were processed

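The deposited table holds a log2 ratio for every spot and array, as read from the values: they are signed, and 36 lie at an upper limit equal to a ratio of 100000. What the authors did to make these log2 ratios (dyes, background correction, normalization) is not given in the sources used here. The platform annotation gave 1 symbol for 11138 of 12800 spots, and 0 symbols changed through the RefSeq gene table (R64), which held 11128 of them. Each array was centred on its median, the spots of a gene were averaged, and every gene valued on 3 or more arrays was fitted with limma 3.58.1 in R 4.3.3 (lmFit and eBayes, intercept only, two-sided, Benjamini-Hochberg over 5489 genes, threshold 0.05). SE is limma's moderated error. The fit was tried on simulated data with independent arrays and no channel effect. The real arrays differ from that, so the trial does not vouch for the fit here. Differences within pairs used an exact sign-flip permutation test. Precision is limited by the number of arrays.

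The members and the 8 lists beside them were chosen with earlier results of these data known. Named are all members, all neighbouring enzymes, other channels and Fps1 regulators and wall stress markers, the 2 genes of each other list with the smallest p, and the 5 genes nearest to the member with the smallest p. HSP26 and NTH1, not among the 2 smallest p of their list, were added with their values known. Planned promoter motif counts were not analysed here. Alternatives were no centring, a common spread, quantile normalization, a channel term, pair averages, other filters on missing values, single spots, upper limit values or disagreeing spots left out, running centring, arrays 2 and 4 turned, and each array left out. Coordinates are left out because the array's build is not given in the sources used here.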

Additional observations from a re-analysis of the deposited data

Results flagged for a closer look

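Dixon's criterion was applied to 43 sets of 4 array values. These were the named genes with a value on every array, except HSP26 and NTH1, and the 3 paired differences. Of these sets, 4 had 1 array far from the other 3, which chance alone gives in about 1 of 20. GPD1 stood at 0.51 on array 4, against 0.31 to 0.35 on the others. GUT2 stood at 0.24 on array 2, against -0.12 to -0.09 on the others. CWP1 stood at 3.06 on array 4 and TPS2 at 1.504 on array 2, each above its other values. The low array 2 values of GPD2 and GUT1, at -1.91 and -1.38, did not meet the criterion.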

How the results depend on the processing

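Of 163 values of the 10 genes under other settings, 0 passed the threshold (lowest limma adjusted p = 0.28, GPD1 with running centring, at 0.58), 153 kept their sign and 10 did not. The count of kept signs includes settings that could not change a mean. For a gene with 4 values these were the channel term, pair averages and the filters on missing values. Leaving out array 2 likewise changed no mean of GCY1 and STL1. Leaving out disagreeing spot pairs changed no mean either, as only GCY1 had such a pair and was then not tested. With arrays 2 and 4 turned, GPD1 was at -0.044, FPS1 at -0.0099, GCY1 at 0.33, GPD2 at 0.29, GUT1 at 0.36, GPD1 minus GPD2 at -0.34 and GUT1 minus GUT2 at 0.45. Leaving out arrays moved GPD2 between -0.76 and 0.0091, GUT2 between -0.11 and 0.015, and GUT1 minus GUT2 between -0.58 and 0.051. GUT2 was also above 0 without centring (0.039), in its higher-numbered spot (0.025) and with running centring (0.016). In the other settings GPD1 ran from 0.33 to 0.58 and FPS1 from -0.27 to -0.17.

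Over all genes the 5 calls became 0 with a common spread, quantile normalization, a channel term, pair averages, running centring, arrays 2 and 4 turned or any 1 array left out (232 to 726 genes at a limma unadjusted p under 0.05), 3 of 10661 with single spots, and 11 without disagreeing spot pairs. The mean r between arrays of opposite channels was -0.03 over single spots. Each ratio already pairs treated with untreated RNA on 1 array, and no further pairing was used in the main fit. Pair averages and values on all 4 arrays gave nothing for GCY1 and STL1, which lack array 2. The printed intervals reflect spread between 4 arrays, which may be technical, and hold only for the centring and direction used. They do not bound the change in separate cultures, and no signal strength was set against background.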
